A study of Mus musculus with 20 samples.

Results

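Metallothioneins and zinc transport are described here by 8 genes: the metallothioneins Mt1, Mt2, Mt3 and Mt4, their regulator Mtf1, the zinc exporter Slc30a1 and the zinc importers Slc39a10 and Slc39a14. The rule takes genes by name in the array annotation, with no threshold on a measured value, although the names were picked with earlier results of these data known. All 8 are among its 27827 gene names. Kidney RNA of C57BL/6 male mice aged 8 to 12 weeks was read in 1 colour on 20 Agilent arrays covering the mouse genome, 4 in each of 5 groups. Control mice had neither surgery nor drug. In the IRI group, both renal pedicles were clamped for 45 min under anaesthesia, and kidneys were taken after 6 h of reperfusion. The IRI+Hemin group received 25 mg/kg Hemin, an inducer of heme oxygenase 1, into the peritoneum 24 h before the same surgery, and the Hemin group received the drug alone. In the IPC+IRI group, both pedicles were clamped for 15 min 7 days before the standard IRI. Control kidneys were not sham operated, so anaesthesia, incision and ischemia cannot be told apart.

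Metallothioneins are small proteins whose many cysteines bind zinc and copper, and they also bind cadmium and scavenge oxidants. Mt1 and Mt2 are made in most tissues, kidney tubules among them, Mt3 is best known from the brain and Mt4 from stratified epithelia. MTF-1, the product of Mtf1, senses free zinc and binds metal response elements in the promoters of Mt1, Mt2 and Slc30a1, and glucocorticoids and IL-6 are other known inducers of metallothioneins. Slc30a1 encodes ZnT1, which moves zinc out of the cell, while Slc39a10 and Slc39a14 encode ZIP10 and ZIP14, which move it into the cytosol.

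On GRCm38.p6, the 4 metallothionein genes lie in 1 cluster on chromosome 8, with Mt4 from 94137204 to 94139031, Mt3 from 94152607 to 94154148, Mt2 from 94172618 to 94173567 and Mt1 from 94178883 to 94180327. Mtf1 is on chromosome 4, from 124802549 to 124849800. Slc30a1 (191906697 to 191913248) and Slc39a10 (46807544 to 46925776) are both on chromosome 1, and Slc39a14 is on chromosome 14 from 70303467 to 70351452. RefSeq promoter windows of the same build, from 250 bases before to 50 bases after a start site, were found for 7 of the 8 genes, all but Slc39a14. The start sites of the Mt1 window (94178839 to 94179138) and the Slc30a1 window (191906531 to 191906830) lie inside the gene spans above and not at their first base.

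The 250 bases before the Mt2 start (chr8:94172368-94172617, plus strand) are shown because Mt2 rose with ischemia, and the same stretch of Mt3 (chr8:94152357-94152606, plus strand) because its neighbour Mt3 did not pass the test between IRI and Control. Capitals mark metal response element cores, searched on both strands as TGCACNC or TGCGCNC.
Mt2: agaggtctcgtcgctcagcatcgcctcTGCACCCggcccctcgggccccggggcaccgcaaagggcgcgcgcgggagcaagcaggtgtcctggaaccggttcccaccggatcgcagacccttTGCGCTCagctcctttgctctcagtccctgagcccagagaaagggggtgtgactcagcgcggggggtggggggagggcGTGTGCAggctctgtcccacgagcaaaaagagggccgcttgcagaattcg
Mt3: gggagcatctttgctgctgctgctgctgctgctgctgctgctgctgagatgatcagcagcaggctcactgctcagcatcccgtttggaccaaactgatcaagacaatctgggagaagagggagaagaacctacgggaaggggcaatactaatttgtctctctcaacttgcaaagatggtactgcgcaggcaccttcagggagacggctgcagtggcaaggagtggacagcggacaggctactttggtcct

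The whole Mt2 window held 4 such cores, 1 of them after the start site, and 0.517% of the 32851 windows in the table held as many or more. The Mt1 window held 3, a count reached by 1.97% of windows, and the Slc30a1 window 2, reached by 7.11%. Mt3 and Mt4 had 1 core each, and 25.7% of all windows held at least 1. The Mt1 cores at 2 and 20 bases from the start site, the Slc30a1 core at 30 and the Mt3 core at 27 lie after it. All cores of Mt1 and Slc30a1 lie inside the gene spans given above. No core was found in the windows of Mtf1 and Slc39a10. These cores of Mt1 (chromosome 8, 94179056 to 94179125) and Slc30a1 (chromosome 1, 191906728 to 191906827) are printed with 10 bases on either side, in capitals as above, since both genes are known targets of MTF-1.
Mt1 core 1: ggtcccgctgTGCACACtggcgctcca
Mt1 core 2: cagggagctcTGCACTCcgcccgaaaa
Mt1 core 3: gcccgaaaagTGCGCTCggctctgcca
Slc30a1 core 1: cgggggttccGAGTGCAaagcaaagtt
Slc30a1 core 2: cctccgggccGAGCGCAgtcgccgcgg

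Antioxidant response element cores (TGACNNNGC, either strand) were found once in the windows of Mt2 and Slc30a1, and 12.4% of all windows held at least 1. Hypoxia response element cores (ACGTG or GCGTG, either strand) numbered 2 in Mt1, 2 in Mt2 and 1 in Slc30a1, against 43.8% of all windows with at least 1 and 20.6% with at least 2. In Mt2, 1 of the 4 metal response element cores overlapped a hypoxia response element core. A match of letters is a description of the sequence and not a binding site.

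The 8 genes were read by 14 probes of 60 bases. The main Mt1 probe (A_51_P294979, NM_013602) was spotted 10 times on each array, and the coefficient of variation between its copies was 2.4% to 16% within an array. It lies on mm9 at chr8:96704011-96704070. For Mt4 (NM_008631), A_51_P424272 (chr8:96662155-96662693) and A_51_P424275 (chr8:96662139-96662677) each cover 60 bases of transcript over 539 bases of genome, so each is split on the genome, and they share 44 bases. Their sequences are shown with the codons TGC and TGT, both for cysteine, in capitals, in the reading frame that holds most of them and no stop codon.
Mt1 A_51_P294979: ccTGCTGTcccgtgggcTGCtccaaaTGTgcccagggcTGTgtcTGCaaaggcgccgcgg
Mt4 A_51_P424272: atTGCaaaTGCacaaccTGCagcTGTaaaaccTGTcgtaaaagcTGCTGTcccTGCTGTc
Mt4 A_51_P424275: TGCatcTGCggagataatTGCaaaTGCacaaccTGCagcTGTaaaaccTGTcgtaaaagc

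Cysteine codons made up 6 of 19 codons in the Mt1 probe, 9 of 19 in the first Mt4 probe and 7 of 20 in the second. The longest run of identical bases between the main probe of Mt1 and the Mt2 probe was 5, and between that Mt1 probe and A_51_P424272 of Mt4 it was 10. Exon or UTR positions of the other probes on mm9 were not looked up here, since the annotation used is on GRCm38.p6.

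Values below are log2 expression, the log2 of a gene's signal over the 75th percentile of its array, so that 0 lies at this percentile and 1 unit is a doubling. Differences between groups are log2 fold changes from a limma fit over all 20 arrays, with a standard error (SE), and "called" stands for an adjusted p (Benjamini-Hochberg, over every gene tested) under 0.05. Arrays are given in the order of replicates 1 to 4. In a whole kidney, a change in the number of cells of a type cannot be told apart from a change in RNA per cell. The labels call the arrays replicates without stating that each is a mouse of its own, so p-values measure the spread between these samples, which may be technical. Every slide held a single group, and the effects of slide and group cannot be told apart. The slides of Control and IRI shared a scan day, those of IPC+IRI and Hemin shared another, and IRI+Hemin had a day to itself, so of the comparisons made here only IRI vs Control lay within a scan day. Kidney markers such as Umod and Slc34a1 were well above background on every array. The summed level of the 8 kidney markers, the log2 of their summed scaled signal, ran from 8.42 to 9.02 over all arrays. Replicates of a group correlated over genes at r of 0.9749 to 0.9949.

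**Figure D1:**
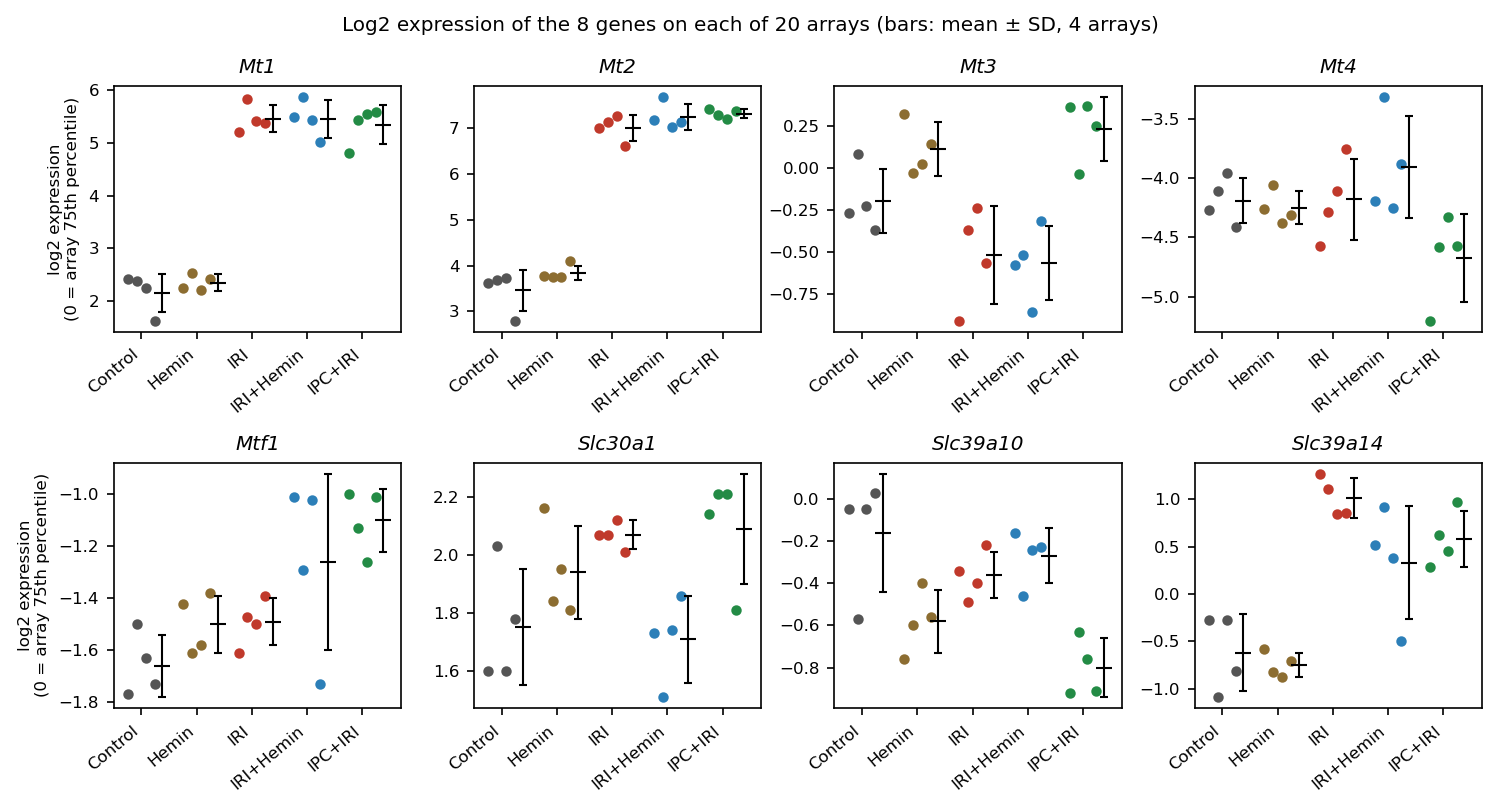
Log2 expression (0 is the array's 75th percentile) of each gene on each of the 20 arrays by group, with each panel on its own axis. Points are arrays in the order of replicates 1 to 4 and bars are the mean ± SD of 4 arrays. For Mt1 and Mt2, the 12 arrays of the 3 groups with ischemia lie above the 8 arrays without it.

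In IRI vs Control, 4 of the 8 genes rose, Mt1, Mt2, Slc39a14 and Slc30a1, and none fell. Of the 17712 genes tested, 17.0% were called higher and 33.7% lower. This tilt depended on the background correction, since with normexp 1770 genes were called higher and 1365 lower, against 3003 and 5965. The 8 genes had a median log2 fold change of 0.24, against -0.17 for all genes. Mt2 had the 64th and Mt1 the 77th highest fold change of all genes tested.

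Log2 expression of Mt1 was 2.41, 2.38, 2.24 and 1.63 in Control. It was 5.21, 5.83, 5.42 and 5.38 in the IRI arrays, all above every Control array. The mean rose from 2.16 ± 0.36 to 5.46 ± 0.26 (SD, n = 4), a 9.82-fold change (log2 fold change 3.30, SE 0.21, adjusted p = 4.33e-09 by limma). Both Mt1 probes were well above background on all 20 arrays and rose when fitted singly, by 3.26 for A_51_P294979 and by 3.88 for A_52_P423810. The second of these was designed on AK154954 and lies on mm9 at chr8:96703844-96703903.

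For Mt2, the Control arrays were at 3.63, 3.69, 3.73 and 2.80, and replicate 4 was thus the lowest, as it was for Mt1. The IRI arrays stood at 7.0, 7.14, 7.26 and 6.61. The rise was 11.6-fold (log2 fold change 3.54, SE 0.19, adjusted p = 6.79e-10 by limma). Without Control replicate 4 or any other single array, the log2 fold change stayed between 3.32 and 3.67 for Mt2 and between 3.12 and 3.38 for Mt1. Mt2 was read by 1 probe (NM_008630, mm9 chr8:96697371-96697430).

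Neither Mt3 nor Mt4 was called in this comparison. Mt3, the metallothionein first described in brain, was at -0.27, 0.08, -0.23 and -0.37 in Control and at -0.91, -0.37, -0.24 and -0.57 in IRI. The groups overlapped, and the difference of -0.33 (95% interval -0.65 to 0.00) had an adjusted p = 0.0853. It was called lower when the percentile was taken over probes above background on all arrays (-0.41), in the deposited log2 table (-0.52) and without IRI replicate 3 (-0.42). Mt4 was dim, with A_51_P424275 well above background on 1 of 20 arrays and A_51_P424272 on all 20, and its difference was 0.00 (95% interval -0.45 to 0.45).

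Of the zinc importers, Slc39a14, which also carries iron and manganese, was at -0.28, -1.09, -0.28 and -0.82 in Control. In IRI it was at 1.27, 1.11, 0.84 and 0.85, and the groups did not overlap. It rose 3.1-fold (log2 fold change 1.63, SE 0.25, adjusted p = 3.73e-05), and its 2 probes gave 1.61 and 1.64. Slc39a10 was at -0.05, -0.57, -0.05 and 0.03 in Control and at -0.34, -0.49, -0.40 and -0.22 in IRI, a difference of -0.20 with an adjusted p = 0.2. Without Control replicate 2, the array at -0.57, the difference was -0.34 and was called lower.

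Slc30a1, the exporter, was at 1.60, 2.03, 1.60 and 1.78 in Control and at 2.07, 2.07, 2.12 and 2.01 in IRI, with 1 Control array inside the range of IRI. The gene was called higher by 0.32 (SE 0.12, adjusted p = 0.0379), a 1.24-fold change, but its 2 probes moved apart. A_51_P250378 (mm9 chr1:193733593-193733652) was 1.39, 1.62, 1.30 and 1.67 in Control and 2.43, 2.37, 2.36 and 2.25 in IRI, and was called higher by 0.86. A_51_P300572 (mm9 chr1:193736760-193736819) was 1.79, 2.35, 1.84 and 1.88 in Control and 1.59, 1.70, 1.84 and 1.72 in IRI, a difference of -0.25 (adjusted p = 0.177). The call for the gene was lost under 6 of the 8 left-out arrays and under 9 other alternatives, with the replicate block among them (adjusted p = 0.0595).

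Mtf1 was at -1.77, -1.50, -1.63 and -1.73 in Control and at -1.61, -1.47, -1.50 and -1.39 in IRI. The difference of 0.17 (95% interval -0.12 to 0.45, adjusted p = 0.316) did not pass the test. Here too probes differed. A_52_P236072 was called higher by 0.73, A_52_P467266 was at -0.24 (adjusted p = 0.191), and A_52_P55666 was not well above background on any array.

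**Figure D2:**
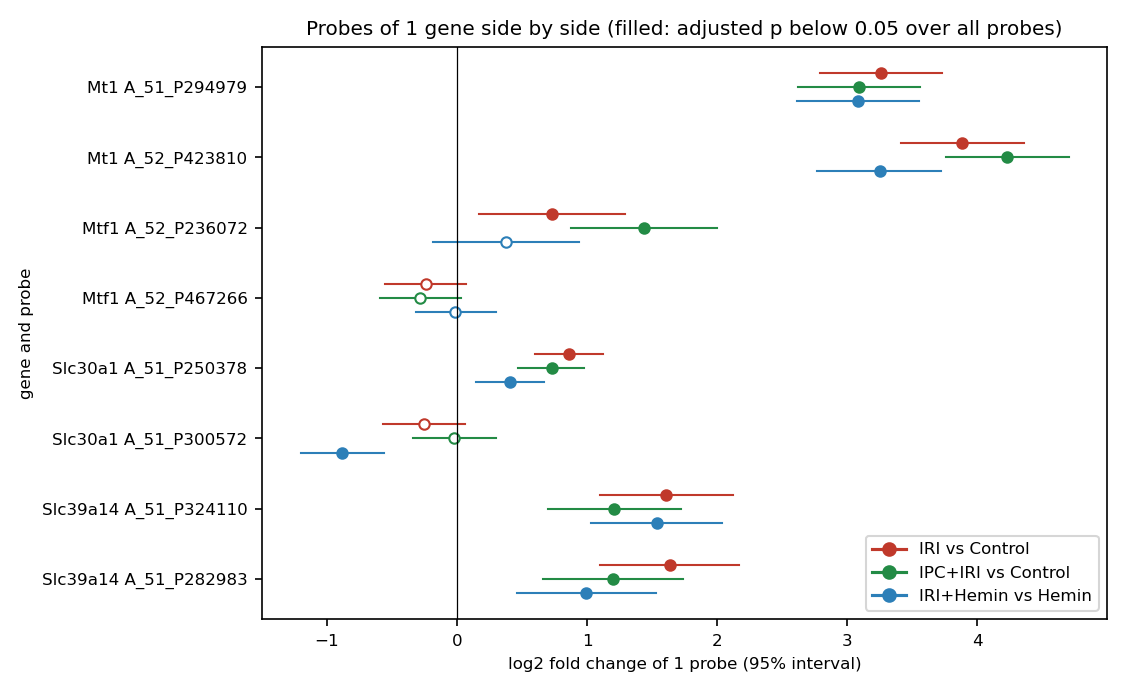
Log2 fold change of single probes, with 95% intervals, for the 4 genes read by more than 1 probe well above background, in the 3 comparisons with ischemia against a group without it. Filled points were called over all probes. The probes of Mt1 and Slc39a14 moved the same way, while those of Slc30a1 and Mtf1 lay on different sides of 0 in IRI vs Control.

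The same question was asked within Hemin-treated mice, by IRI+Hemin vs Hemin, which shares no array with IRI vs Control. Mt1, Mt2 and Slc39a14 rose here too and Mt3 fell, so 3 of 8 genes were called higher and 1 lower, against 16.4% and 27.8% of the 18629 genes tested. Over the 8 genes the median log2 fold change was 0.33, and over all genes it was -0.15.

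In the Hemin group, Mt1 was at 2.24, 2.54, 2.21 and 2.41, and with ischemia it was at 5.49, 5.87, 5.44 and 5.01. The rise was 8.57-fold (log2 fold change 3.1, SE 0.21, adjusted p = 1.3e-08). Mt2 went from 3.77, 3.76, 3.75 and 4.09 in Hemin to 7.18, 7.68, 7.02 and 7.14 in IRI+Hemin, a 10.7-fold rise (3.41, SE 0.19, adjusted p = 2.61e-09). In both genes every IRI+Hemin array was above every Hemin array.

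Slc39a14 was at -0.58, -0.83, -0.88 and -0.71 in Hemin and at 0.52, 0.92, 0.38 and -0.50 in IRI+Hemin, where replicate 4 stood closest to the Hemin arrays without overlapping them. The log2 fold change was 1.08 (SE 0.25, adjusted p = 0.00201), and the call was lost without normalization between arrays (adjusted p = 0.0529). Mt3 fell by 0.68 (SE 0.15, adjusted p = 0.00192), from 0.32, -0.03, 0.02 and 0.14 to -0.58, -0.52, -0.86 and -0.32, with no overlap. Slc30a1 as a gene was not called (-0.23, adjusted p = 0.132), although A_51_P250378 was called higher by 0.41 and A_51_P300572 was called lower (-0.88). The differences of Mtf1 (0.23), Slc39a10 (0.31) and Mt4 (0.34) did not pass the test. Without IRI+Hemin replicate 4, Mtf1 was called higher by 0.39. Slc39a10 was called higher with normexp (0.36), with only the arrays compared (0.31), without IRI+Hemin replicate 2 (0.37) and without Hemin replicate 3 (0.37).

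The interaction of Hemin and IRI tests whether ischemia changed a gene differently with and without the drug. None of the 8 genes was called by limma, while 5.82% of the 19060 genes tested were called higher and 1.95% lower. At an unadjusted p below 0.05, Slc30a1 and Slc39a10 passed. For Mt1 the interaction was -0.20 (95% interval -0.83 to 0.43) and for Mt2 -0.12 (95% interval -0.70 to 0.45). Slc30a1 had -0.55 (adjusted p = 0.0592) and Slc39a10 0.51 (adjusted p = 0.0956). With Control replicate 2 left out, both were called, Slc30a1 at -0.64 and Slc39a10 at 0.65, and Slc30a1 was called at -0.60 without IRI+Hemin replicate 4.

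Hemin vs Control asked what the drug did without surgery. Slc39a10 was the 1 gene of the 8 that was called, and it was lower, while 18.4% of the 18573 genes tested were called higher and 17.5% lower. For the 8 genes the median difference was 0.17, and for all genes 0.06. Slc39a10 was at -0.76, -0.60, -0.40 and -0.56 in Hemin, a range that took in Control replicate 2, and its difference from Control was -0.42 (SE 0.13, adjusted p = 0.0171). That call was lost without Control replicate 3 or 4 or Hemin replicate 1, and with only the arrays compared. In the deposited log2 table Slc39a10 was not called (-0.35) and Slc30a1 was called higher (0.31), and without normalization between arrays the difference of Slc39a10 was 0.15.

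Mt1 differed from Control by 0.19 (95% interval -0.26 to 0.64, adjusted p = 0.511) and Mt2 by 0.38 (95% interval -0.03 to 0.79, adjusted p = 0.136). All 4 Hemin arrays of Mt2 were above all 4 Control arrays, for which the exact two-sided permutation test gives p = 0.029, the smallest that 4 against 4 arrays allow. Without normalization between arrays, 5 of the 8 genes were called in this comparison, Mt1 by 0.75 and Mt2 by 0.94, where the median of all genes was 0.622. In that setting 8766 of the 18573 genes tested were called higher and 477 lower.

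IRI+Hemin vs IRI set the drug-treated injured kidneys beside the untreated ones. Slc30a1 and Slc39a14 fell and none of the 8 rose, against 26.1% of the 17832 genes tested called higher and 18.0% called lower. The median over the 8 genes was 0.04 and over all genes 0.08. Mt1 differed by -0.01 (95% interval -0.45 to 0.44) and Mt2 by 0.25 (95% interval -0.15 to 0.66), with overlapping arrays in both.

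Slc30a1 was at 1.73, 1.51, 1.74 and 1.86 in IRI+Hemin, below all IRI arrays, and fell by 0.36 (SE 0.12, adjusted p = 0.022). Its probes went the same way here, at -0.36 and -0.37, the second with an adjusted p = 0.0514. Under normexp background correction the difference was -0.07 and in the deposited log2 table -0.10, and neither was called. The call was also lost without IRI replicate 3 (-0.34) and without IRI+Hemin replicate 2 (-0.30). Slc39a14 fell by 0.69 (SE 0.25, adjusted p = 0.0317), with overlapping groups and with probes on different sides, A_51_P282983 at -0.83 (adjusted p = 0.0127) and A_51_P324110 at 0.19. Its lowest IRI+Hemin array was replicate 4 (-0.50), and without it the difference was -0.41 and was not called, while Mtf1 was called higher (0.39). The Slc39a14 call was also lost without IRI replicate 1 (-0.60) and without IRI replicate 2 (-0.66). It was lost as well with normexp (-0.32), with the mean of log2 over probes (-0.32), without normalization between arrays (-0.32) and in the deposited log2 table (-0.03).

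IPC+IRI vs Control gave 6 of the 8 genes called higher, all but Mt4 and Slc39a10, and Slc39a10 called lower, against 23.2% and 32.6% of the 18344 genes tested. The 8 genes had a median of 0.49 and all genes one of -0.09. These values share the Control arrays with IRI vs Control.

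Preconditioned kidneys had Mt1 at 4.81, 5.44, 5.55 and 5.59, a rise of 9.09-fold over Control (log2 fold change 3.18, SE 0.21, adjusted p = 7.88e-09). Mt2 was at 7.42, 7.28, 7.20 and 7.37, 14.5-fold above Control (3.86, SE 0.19, adjusted p = 6.43e-10) and the 30th highest fold change of all genes tested. Slc39a14 rose 2.3-fold (1.20, SE 0.25, adjusted p = 0.000536), with arrays at 0.28, 0.62, 0.45 and 0.97. All IPC+IRI arrays of these 3 genes were above all Control arrays.

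Smaller differences were found in the other genes. Mtf1 was at -1.0, -1.13, -1.26 and -1.01 and rose by 0.56 (adjusted p = 0.00195), a call that rests on A_52_P236072 (1.44), since A_52_P467266 gave -0.28 and the mean of log2 over probes gave 0.12, which was not called. Slc30a1 was at 2.14, 2.21, 2.21 and 1.81, overlapped with Control and was called higher by 0.34 (adjusted p = 0.0251), with A_51_P250378 at 0.73 and A_51_P300572 at -0.02. The Slc30a1 call was lost under 5 of the 8 left-out arrays. Mt3 was at 0.36, -0.04, 0.37 and 0.25, overlapped with Control and was called higher by 0.43 (adjusted p = 0.0244), a call that was also lost under 5 left-out arrays. Slc39a10 was at -0.92, -0.63, -0.76 and -0.91, below every Control array, and fell by 0.64 (adjusted p = 0.000411), a call that was lost without normalization between arrays (-0.21, adjusted p = 0.579). Mt4 was at -5.20, -4.58, -4.33 and -4.57, a difference of -0.48 (adjusted p = 0.0627), and it was called lower with the brightest probe (-0.54) and under 5 other alternatives.

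**Figure D3:**
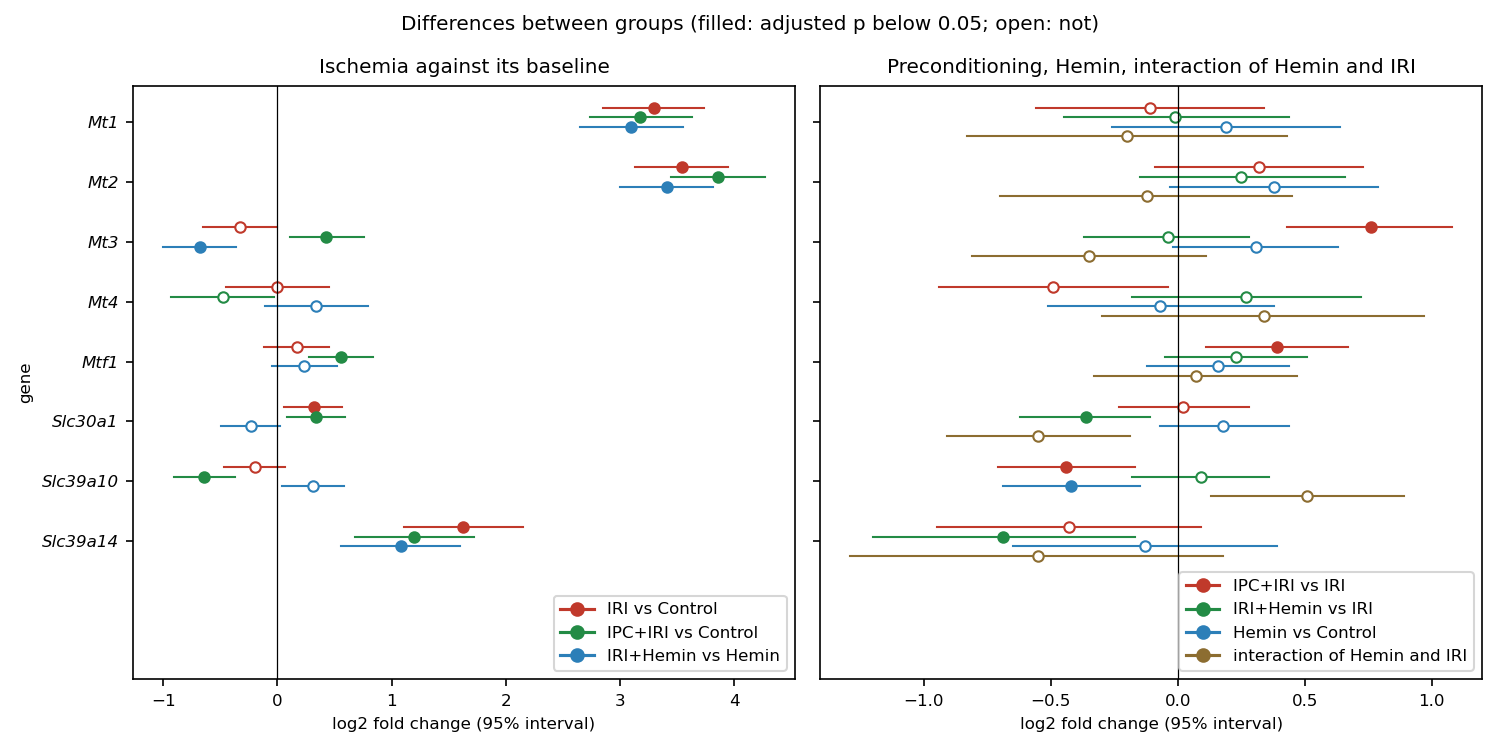
Log2 fold change of the 8 genes with 95% intervals, on the left for the 3 comparisons of ischemia with a group without it, on the right for preconditioning, Hemin and the interaction. Filled points were called. Mt1, Mt2 and Slc39a14 lie between 1.08 and 3.86 in all 3 comparisons on the left, while the values on the right stay between -0.69 and 0.76.

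IPC+IRI vs IRI asked what preconditioning added. Mt3 and Mtf1 were called higher and Slc39a10 lower, and 26.0% of the 17666 genes tested were called higher and 17.7% lower. The median was -0.04 over the 8 genes and 0.09 over all genes. Mt3 had no overlap between the groups and was 0.76 higher with preconditioning (SE 0.15, adjusted p = 0.000854), with a range of 0.63 to 0.85 when any array was left out. Mtf1 was 0.39 higher (adjusted p = 0.0258) and Slc39a10 was 0.44 lower (log2 fold change -0.44, adjusted p = 0.0103), both without overlap. Mtf1 lost its call under 4 of the 8 left-out arrays, with normexp (0.11) and with the mean of log2 over probes (0.09), and A_52_P467266 gave -0.04. Slc39a10 lost its call in the deposited log2 table (-0.30, adjusted p = 0.138) and without normalization between arrays (-0.12).

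Mt1 and Mt2 did not pass the test here, with differences of -0.11 (95% interval -0.56 to 0.34) and 0.32 (95% interval -0.09 to 0.73). For Slc39a14 the difference was -0.43 (95% interval -0.95 to 0.09), for Slc30a1 0.02 and for Mt4 -0.49.

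Ordered by group mean, Mt1 was highest in IRI (5.46), then IRI+Hemin (5.45), IPC+IRI (5.35), Hemin (2.35) and Control (2.16), and the only neighbours in this order whose arrays did not overlap were IPC+IRI and Hemin. Mt2 ran from IPC+IRI (7.32) through IRI+Hemin (7.25), IRI (7.0) and Hemin (3.84) to Control (3.46), with no overlap between IRI and Hemin or between Hemin and Control. Slc39a14 was highest in IRI (1.01), followed by IPC+IRI (0.58), IRI+Hemin (0.33), Control (-0.62) and Hemin (-0.75), and all neighbours overlapped. Mt3 was highest in IPC+IRI (0.23) and lowest in IRI+Hemin (-0.57), Slc39a10 highest in Control (-0.16) and lowest in IPC+IRI (-0.80), and in both all neighbours overlapped.

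Over the 20 arrays, Mt2 followed Mt1 with r = 0.985 and Slc39a14 with r = 0.884, given as descriptions because the arrays fall into groups with and without ischemia. After the group means were removed, r with Mt1 was 0.541 for Mt2, 0.557 for Slc39a14 and 0.564 for Mt4, whose r over all arrays was 0.039. The other members had within-group values of -0.354 to 0.241. Among 14524 genes well above background on all 20 arrays, the 5 most like Mt1 were Sphk1 (0.992), which makes sphingosine 1-phosphate, Srxn1 (0.985), a sulfiredoxin, Ezr (0.984), a linker of membrane and actin, Socs3 (0.983), a feedback inhibitor of cytokine signaling, and Krt8 (0.983), a keratin. Within groups these correlations were between 0.448 and 0.675. Sphk1 was at 0.06 ± 0.46 in Control, 0.37 ± 0.08 in Hemin and 4.44 ± 0.33 in IRI (SD, n = 4), and Srxn1 was at 1.74 ± 0.21, 1.80 ± 0.09 and 5.01 ± 0.18 in the same groups.

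Of the 21 other zinc exporters (SLC30 family) and importers (SLC39 family), all on the array, 17 were bright enough to be tested. In IRI vs Control, 5 were called higher, 4 lower and 8 not, with a median of 0.00 and values between -1.85 and 0.77. In IRI+Hemin vs Hemin, 1 was called higher and 5 lower. Higher calls in IRI were Slc30a2, Slc30a4, Slc39a1, Slc39a6 and Slc39a7, and lower calls were Slc30a6, Slc39a2, Slc39a3 and Slc39a5. The shares over all genes in these comparisons were 17.0% higher and 33.7% lower in the first and 16.4% and 27.8% in the second. IPC+IRI vs Control gave 3 higher and 6 lower, beside 23.2% and 32.6% of all genes, and IPC+IRI vs IRI 1 and 5, beside 26.0% and 17.7%. IRI+Hemin vs IRI gave 2 and 4, beside 26.1% and 18.0%, and Hemin vs Control 3 and 2, beside 18.4% and 17.5%.

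Slc39a2, a plasma membrane importer, had the largest change among the 17 in IRI vs Control, and Slc39a5 followed with a log2 fold change of -1.0, just short of 2-fold before rounding (adjusted p = 0.00174). Slc39a2 was at -2.25, -2.14, -2.33 and -2.52 in Control and at -4.25, -3.70, -4.24 and -4.46 in IRI, and fell by 1.85 (SE 0.16, adjusted p = 9.47e-08). With the drug alone it was at -3.46, -3.01, -3.36 and -3.19, a fall of 0.95 against Control (adjusted p = 0.000358). IRI+Hemin arrays were at -3.31, -3.12, -3.68 and -3.29, overlapping with Hemin. Its interaction of Hemin and IRI was 1.76 (SE 0.22, adjusted p = 0.000211). This was the 1 call in that test among the 17, beside 5.82% of all genes called higher and 1.95% lower. The fall in IRI vs Control is a term of this interaction.

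**Figure D4:**
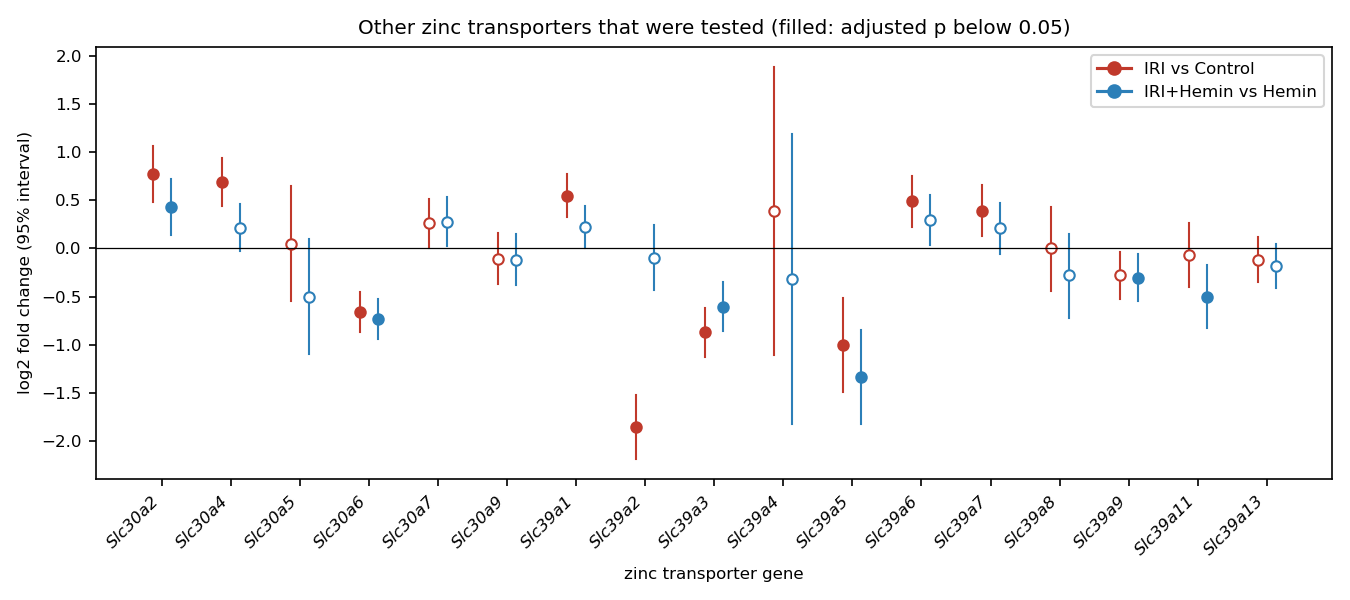
Log2 fold change with 95% intervals of the 17 zinc transporters outside the 8 genes that were tested, in IRI vs Control and in IRI+Hemin vs Hemin. Filled points were called. Slc39a2 was at -1.85 in IRI vs Control and at -0.10 in IRI+Hemin vs Hemin.

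Copper is the other metal that metallothioneins hold, and of 9 copper handling genes tested none was called higher and 2 lower in IRI vs Control, with a median of -0.20, beside 17.0% and 33.7% of all genes. For IRI+Hemin vs Hemin the counts were 0 and 3, beside 16.4% and 27.8%. The other comparisons did hold higher calls of copper genes. IPC+IRI vs Control gave 2 higher and 3 lower (23.2% and 32.6% of all genes) and IPC+IRI vs IRI 3 and 0 (26.0% and 17.7%). IRI+Hemin vs IRI gave 4 and 1 (26.1% and 18.0%) and Hemin vs Control 4 and 2 (18.4% and 17.5%). Of 7 genes known to respond to glucocorticoids, IRI vs Control called 7 higher (median 1.20), IPC+IRI vs Control 6 (1.40) and IRI+Hemin vs Hemin 7 (1.51). In Hemin vs Control none was higher and 1 was lower, beside 18.4% and 17.5% of all genes. Of 8 genes of IL-6 signaling and the acute phase response tested in IRI vs Control, 6 rose (median 2.25), and 8 of 9 rose in IRI+Hemin vs Hemin (2.57), while none of 7 was called in Hemin vs Control. Of all genes, 17.0% were called higher in IRI vs Control, 23.2% in IPC+IRI vs Control and 16.4% in IRI+Hemin vs Hemin. The part of both gene groups in the rise of Mt1, Mt2 and Slc39a14 was not tested.

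Some of the leukocyte markers moved with ischemia as well. Of the 7 on the array, IRI vs Control gave 3 higher and 1 lower call among 6 tested, beside 17.0% and 33.7% of all genes, and IRI+Hemin vs Hemin 3 higher and 0 lower among 6, beside 16.4% and 27.8%. The log2 of their summed signal was -0.44 to 0.01 in Control, -0.35 to 0.98 in Hemin, 1.84 to 3.15 in IRI, 1.46 to 3.42 in IRI+Hemin and 2.74 to 4.33 in IPC+IRI. Such a sum mostly follows its brightest marker, here S100a9, with a mean of -1.72 in Control and 1.96 in IRI. The higher calls in IRI vs Control were S100a8 (4.05) and S100a9 (3.68), calcium-binding proteins abundant in neutrophils, and Cd68 (2.23), a macrophage marker, and the same 3 were called higher in IRI+Hemin vs Hemin (3.11, 2.83 and 2.14). Cd79a, a B cell marker, was the lower one (-1.07). Ptprc, which encodes the pan-leukocyte antigen CD45, and Cd3e, a T cell marker, were not called in IRI vs Control (0.01 and -0.51), and Itgam was too dim to be tested there. IPC+IRI vs Control gave 4 higher and 1 lower call among 7 leukocyte markers, beside 23.2% and 32.6% of all genes. In IPC+IRI vs IRI, Itgam, an integrin of myeloid cells, was called higher (1.46) and Cd68 lower (-0.82), and of the 8 kidney markers Slc34a1, the phosphate transporter of the proximal tubule, was called lower (-0.70). The kidney markers had 1 higher and 2 lower calls in IRI vs Control, 2 and 3 in IPC+IRI vs Control and 1 and 2 in IRI+Hemin vs Hemin, beside the shares of all genes given above. In IRI+Hemin vs IRI, Lrp2 was called higher (0.34) and Slc34a1 lower (-0.91), beside 26.1% and 18.0% of all genes. In Hemin vs Control, Slc34a1 alone was called, lower (-0.54), beside 18.4% higher and 17.5% lower. Of the 3 adrenal markers on the array, Cyp11a1 was not well above background on any array. Star was called higher in IRI vs Control (0.89), IPC+IRI vs Control (1.33) and IRI+Hemin vs Hemin (0.87), and Cyp17a1 was called lower in IRI vs Control (-1.28), IPC+IRI vs Control (-1.94), IPC+IRI vs IRI (-0.66) and Hemin vs Control (-1.55) and higher in IRI+Hemin vs Hemin (0.70). Their summed level was 0.78 to 1.57 in Control and -0.88 to 0.68 elsewhere. No adipose marker was called in any comparison, but Adipoq was bright enough to be tested only in the comparisons that include IRI+Hemin. Adipoq ran from -7.08 to 2.46 between Control arrays. The summed level of the adipose markers overlapped between Control (1.91 to 5.63) and IRI (2.85 to 5.48). The red cell markers Hbb-b1 and Hba-a1 were called lower in IPC+IRI vs IRI (-1.61 and -1.71), where Mt3 and Mtf1 were called higher and Slc39a10 lower, and in no other comparison. Their summed level was 4.95 to 7.10 in Control, 6.21 to 6.58 in IRI and 3.37 to 5.73 in IPC+IRI. The part of these cell types in the results was not tested.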

How the data were processed

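Total kidney RNA was labelled with Cy3 and hybridised by the authors to 20 one-colour arrays, 4 per group. Per the file headers, Agilent Feature Extraction 9.5.3.1 made the deposited intensity values (processed signal after background subtraction, without a step between arrays) and the flags for outliers and for signal well above background. The authors also deposited log2 values, of which 18.1% were blank. Set against the scanner signals, the values of 33598 probes with 1 spot were plain log2 signals (100.00% to within 0.001), neither centred nor scaled, with column medians of 5.99 to 6.96. It holds 13 of the 14 probes used here. Probe positions are mm9, from the array annotation.

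Control and flagged spots were left out (saturated spots stayed), and the mean of a probe's spots was taken. Signals were scaled to the 75th percentile of their array (146.7 to 357.9 intensity units), and probes with the same gene name were averaged before the log2, as the study's methods describe. Of 41174 probes, all 14 of these genes were used. Genes entered a test if no more than 1 value was missing and 3 of 4 arrays of either group were well above background; all 8 genes passed in each comparison, and 57.4% to 67.4% of genes on an array were above background. The number of arrays limits the precision. limma 3.58.1 (R 4.3.3) was fitted on all 20 arrays with 5 group means, which leaves 15 residual degrees of freedom, and the Benjamini-Hochberg adjustment was made separately for each of the 7 comparisons. The study used SAM instead. The fit was tested on simulated data without effects of slide or scan day, so that test does not bear on the overlap of slide and group. Sequences are from RefSeq (GRCm38.p6) and the scanner files, and figures were drawn with matplotlib 3.10.9 in Python 3.11.15.

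The genes and lists were chosen with earlier results of these data known. Named are the 8 genes, other zinc transporters called and at least 2-fold changed in IRI vs Control (at most 6), and the 5 genes most correlated with Mt1. Transporters outside this rule are named only as members of a count, except Slc39a5, which was named after its values were seen, as were the single cell type markers. Alternatives were normexp with an offset of 50, other scalings, other summaries of probes, the deposited table, other filters, a 2-fold cutoff, only the arrays compared, a replicate block and each array left out. Single-probe fits were added after the data were seen. Same-numbered arrays did not deviate together in every pair (r of -0.317 to 0.145), so the numbers were not taken as pairs.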

Additional observations from a re-analysis of the deposited data

Results flagged for a closer look

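In 3 of the 40 sets of 4 arrays, 1 array stood far from the other three, where chance gives about 1 in 20. Mt2 was at 2.80 on Control replicate 4, with a gap to the next array of 0.892 of the range. Mt2 was also at 4.09 on Hemin replicate 4, with a gap of 0.941 of the range. Slc39a10 was at -0.57 on Control replicate 2, with a gap of 0.867 of the range.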

How the results depend on the processing

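Mt1, Mt2 and Slc39a14 kept their calls in IRI vs Control, IPC+IRI vs Control and IRI+Hemin vs Hemin when any 1 array was left out, and Slc39a14 lost its call in IRI+Hemin vs Hemin without normalization between arrays. Over all 8 genes, comparisons and alternatives, 1071 values kept their direction and their side of the threshold, 70 lost the call and 34 gained it in the same direction. Another 58 changed sign without being called on either side, and 9 that were called on at least 1 side reversed; the cause was not tested. These 9 were Mtf1 on probe A_52_P467266 alone (-0.28 in IPC+IRI vs Control, -0.04 in IPC+IRI vs IRI), Slc30a1 on probe A_51_P300572 alone (-0.25 in IRI vs Control, -0.02 in IPC+IRI vs Control), Slc30a1 in IRI+Hemin vs Hemin with the brightest probe (0.41) and with that probe, A_51_P250378, fitted alone (0.41), Slc39a14 on probe A_51_P324110 alone (0.19 in IRI+Hemin vs IRI) and, without normalization between arrays, Slc30a1 in IRI+Hemin vs IRI (0.00) and Slc39a10 in Hemin vs Control (0.15). Fitting probes singly was chosen after seeing the data. Of the 8 genes, Hemin vs Control called 1, against 5 without normalization, 0 at a cutoff of at least 2-fold, 0 with only the arrays compared and 0 to 1 with an array left out. The main fit called 3417 of the 18573 genes tested higher and 3258 lower, and without normalization 8766 and 477. At 2-fold the counts were 405 and 1110, and with only the arrays compared 4013 and 3632. In the deposited table the 1 call among the 8 genes was Slc30a1, higher (0.31), in place of Slc39a10 (-0.35). IRI+Hemin vs IRI called 2, against 0 with normexp, 1 without normalization, 1 with the mean of log2 over probes, 1 in the deposited log2 table, 0 at 2-fold, 1 with only the arrays compared and 1 to 2 with an array left out. The single calls there without normalization and in the deposited table were other genes in the other direction, Mt2 (0.62) and Mtf1 (0.43), and Slc30a1 and Slc39a14 lost their lower calls in both (Slc39a14 was at -0.32 and -0.03). Without IRI+Hemin replicate 4, Mtf1 was called higher (0.39) there and Slc39a14 was not called. At 2-fold, IPC+IRI vs Control called 3 and IPC+IRI vs IRI 0 of the 8 genes. Over all genes, 1461 of 18344 were then called higher and 2585 lower in the first, and 1266 and 777 of 17666 in the second. The interaction called 0 to 2 with an array left out, 2 of them without Control replicate 2, where 969 of 18952 genes were called higher and 385 lower. Without normalization the median over all genes moved to 0.622 in Hemin vs Control, 0.446 in IRI+Hemin vs IRI, 0.410 in IPC+IRI vs IRI and 0.351 in IPC+IRI vs Control, and 94.8%, 91.6%, 90.9% and 75.2% of calls were then higher, where they had been 51.2%, 59.2%, 59.5% and 41.5%. With normexp the share of higher calls went from 33.5% to 56.5% in IRI vs Control (1770 higher and 1365 lower, against 3003 and 5965), from 59.5% to 49.0% in IPC+IRI vs IRI, from 59.2% to 45.0% in IRI+Hemin vs IRI and from 37.1% to 47.2% in IRI+Hemin vs Hemin. In the deposited table it was 19.6%, 73.1% and 76.8% in the first 3 of these and 88.9% in the interaction (from 74.9%, and 64.7% with quantile normalization), and in Hemin vs Control it was 35.1% with the percentile over probes above background on all arrays.

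With the replicate number as a block, 3 genes were called in IRI vs Control, 8 in IPC+IRI vs Control, 3 in IPC+IRI vs IRI, 2 in IRI+Hemin vs IRI, 1 in Hemin vs Control, 4 in IRI+Hemin vs Hemin and 0 in the interaction. Over all genes the block called 2882 higher and 5765 lower of 17712 in IRI vs Control and 4095 and 5823 of 18344 in IPC+IRI vs Control. It called 4405 and 2950 of 17666 in IPC+IRI vs IRI and 4434 and 3022 of 17832 in IRI+Hemin vs IRI. Counts were 3158 and 3094 of 18573 in Hemin vs Control, 2920 and 4884 of 18629 in IRI+Hemin vs Hemin and 993 and 280 of 19060 in the interaction. The block gave 3.30 for Mt1 in IRI vs Control. In IRI vs Control every array correlated best with its own number (r of 0.052 to 0.145), which is a hint from the data and not part of the design. Slide as a random block was not run, since slide and group coincide. A signal near background limits what can be said of Mt4.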
